A study of Mus musculus with 15 samples.

Results

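IL6Myc-2 is a mouse myeloma cell line, and its 3 RNA sequencing libraries, of 15 in the series, were compared with the 12 libraries of 4 other lines. The libraries were taken by the line their labels name, so no measured value entered the choice. The other lines are IL6Myc-1, IL6Myc-3, IL6Myc-4 and IL6Myc-5, and the reference for each gene was the mean of their 4 line means on the log scale. All 5 lines were derived from IL6Myc mice and share the IL6Myc genotype. No treatment, strain, age, transgene promoter or clonality of a line is stated in the labels, and normal plasma cells are not among the samples. The 3 libraries of a line are technical replicates. Each p-value below therefore measures the spread between libraries of the same line, and a difference describes IL6Myc-2 as a line and not a condition.

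Multiple myeloma is a cancer of plasma cells, the antibody-secreting end stage of the B cell lineage. Malignant plasma cells often depend on NF-kB, a family of transcription factors reached by a classical and an alternative route. In the classical route the IKK complex removes IkB inhibitors from dimers that contain RelA or c-Rel. In the alternative route the kinase NIK, encoded by Map3k14, triggers processing of the Nfkb2 product p100 to p52, which pairs with RelB. TRAF2, TRAF3 and the cIAP proteins keep NIK low, and lesions that raise NIK or remove TRAF3 are known in human myeloma. Plasma cells normally switch off MHC class II genes when the transcription factor Blimp-1 (Prdm1) represses the class II transactivator Ciita.

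Plasma cell transcripts were present in IL6Myc-2 as labelled. Mzb1, Jchain, Xbp1, Irf4 and Prdm1 were at 2721, 10599.9, 1573, 977 and 167, the means in CPM (counts relative to the scaled library total). Sdc1, the gene of the plasma cell surface marker CD138, was at 294, 277 and 282 CPM in the 3 libraries and at 310.3 to 596 CPM (median 383) in the others. These 6 genes did not pass the thresholds given below. Tnfrsf17, which encodes the survival receptor BCMA, was called lower, at 8.5, 8.85 and 9.08 CPM against 9.3 to 50.6 CPM (median 28.7). All 3 libraries lay below the 12 others, although IL6Myc-3 was nearly as low, with a mean of 10.2 CPM. Of the mature B cell genes Pax5, Cr2 and Fcer2a, none reached 1 CPM as a mean in IL6Myc-2, while Ms4a1 (CD20) was at 92.8 CPM and within the range of the others.

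Library totals ran from 19068543 to 41165599 estimated counts over the 15 libraries and from 19092612 to 24367971 in IL6Myc-2. Immunoglobulin genes took 11.4% to 11.6% of the counts in its libraries against 4.61% to 6.86% in the others. The 18S ribosomal transcript took 0.530% to 0.553% against 0.132% to 0.448%, and both shares lay above those of all others. Mitochondrial transcripts took 6.20% to 6.5% against 4.12% to 6.23%, with an overlap. Scaling without the immunoglobulin genes was tried and is given with the other settings below. Whether these shares otherwise have a part in any comparison below was not tested. On the log2(CPM + 1) scale the mean distance of the IL6Myc-2 libraries from each other was 23.9. From the libraries of IL6Myc-5, IL6Myc-3, IL6Myc-4 and IL6Myc-1 it was 75.4, 78.5, 83.5 and 97.7. The other 4 lines lay 71.5 apart on average, with 61.6 to 84.5 for single pairs of lines, so these distances overlap with those of IL6Myc-2. The RNA came from whole cultures, so fewer cells of a type and less RNA per cell cannot be told apart.

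A gene was called when its level in IL6Myc-2 differed from the reference by at least 1 log2 unit and the quasi-likelihood test of edgeR, run over 11773 genes, gave an adjusted p below 0.05. Such calls were made for 1013 genes with higher levels in IL6Myc-2 (8.6%) and for 480 genes with lower levels (4.08%). Of the higher ones, 582 differed by 2-fold to 4-fold, 431 by 4-fold or more and 151 by 16-fold or more. Each list's count below stands against these shares. The lists were chosen with earlier results of these data known, so the counts describe the lists and do not test them. A stricter count asked for the same call against each of the 4 lines singly. It held 364 higher genes (3.09% of those tested) and 130 lower genes (1.1%). When 1 IL6Myc-2 library was left out it held 253 to 262 higher genes, and genes such as Ltb, H2-Ab1 and Egln1 were then not tested, because the filter asks for 1 CPM in 3 libraries. Genes of this kind passed the filter through the IL6Myc-2 libraries alone. They could be called higher but not lower, which adds to the higher counts of their lists. Because the reference is a mean of logs, 1 line at or near 0 lowers it, and 35 called higher genes, none of them named here, had a mean under the plain average of the 4 other line means. For 221 of the called higher genes another line had a still higher mean, and for 55 of the called lower genes another line was lower still. All 3 IL6Myc-2 libraries lay above the 12 others for 1622 genes (13.8%) and below them for 1316 genes (11.2%). The median log2 difference of all tested genes was -0.00899.

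**Figure D1:**
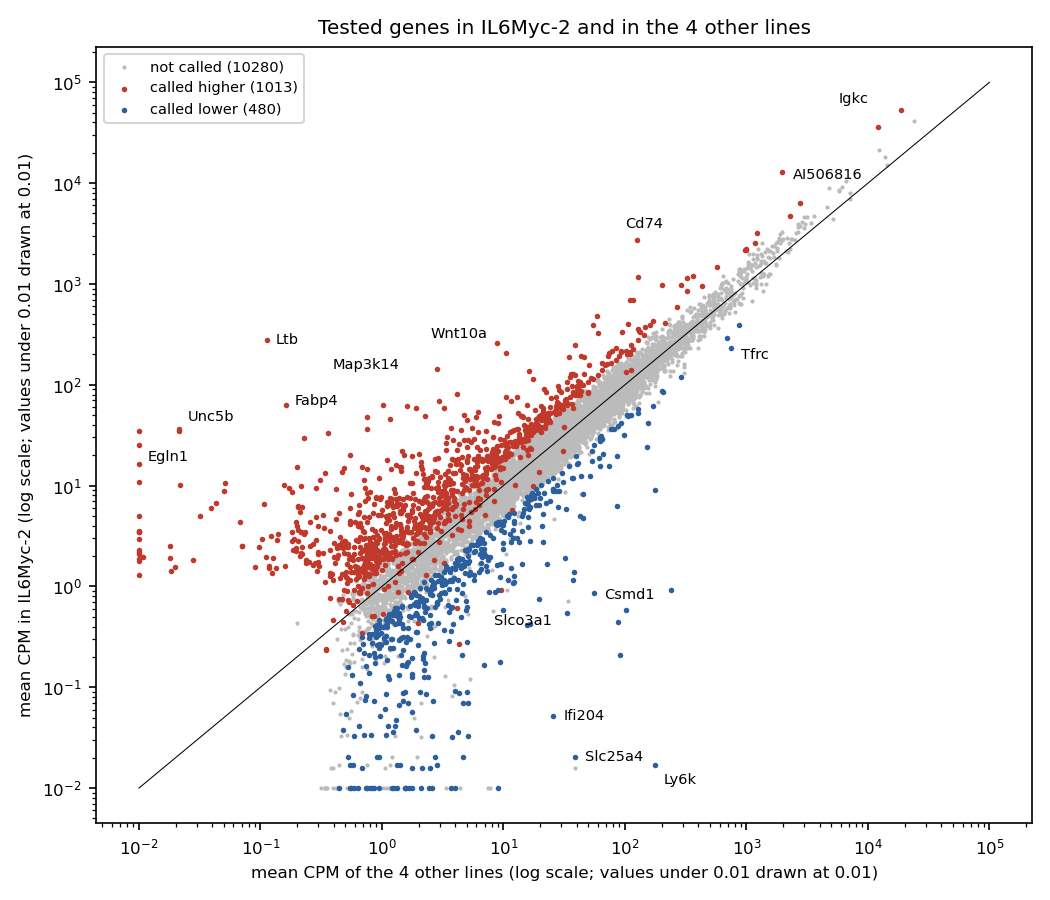
Mean level of each tested gene in IL6Myc-2 (vertical axis, CPM, log scale) against the mean of the 4 other lines (horizontal axis, CPM, log scale), 1 point per gene, with the diagonal marking equal levels. Of the 1013 called higher genes all but 35 lie above the diagonal, and the 480 called lower genes lie below it, with Ltb and Map3k14 far above and Ly6k and Slc25a4 far below.

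Alternative NF-kB genes were high in IL6Myc-2 at the kinase, at the subunits and at 1 ligand. Of 7 ligand genes of receptors that feed this route, Ltb was the only one to pass the filter on low counts. It passed through the IL6Myc-2 libraries alone, so it could be called higher but not lower. It encodes lymphotoxin beta, the membrane-bound partner of lymphotoxin alpha and a ligand of the lymphotoxin beta receptor. Ltb was at 276, 280.2 and 271 CPM in this line and at 0 to 0.260 CPM (median 0.0805) in the 12 others. The ranges were far apart, and the mean was 1454-fold above that of the nearest line (log2 difference 11.52 ± 0.11 with edgeR adjusted p = 6.20e-21). The ± of a log2 difference, here and below, is its size divided by the square root of the test's F statistic. It stands in for an SE and is not a fitted one, and it is rough for genes near 0 counts in the other lines, such as Ltb. Lta, which encodes the partner needed for the secreted and the mixed trimers, was at 0.333 CPM and below the filter. Of 8 receptor genes 3 were tested and none was called, and Ltbr and Cd40 were below the filter.

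Map3k14 was at 149, 132 and 144 CPM in the 3 libraries and at 2.37 to 3.34 CPM (median 2.73) in the others. The groups were far apart, and the other 4 lines were close to each other (log2 difference 5.66 ± 0.05 with edgeR adjusted p = 9.84e-21). The genes next to Map3k14 in genome order did not share this rise. Arhgap27 and Arhgap27os3 on its one side had means of 20.3 and 6.3 CPM and log2 differences of 0.56 and 0.69, below the size threshold, and Spata32 and Efcab15 on its other side had 0 counts in IL6Myc-2. Of the 9 tested kinases and regulators of the alternative route, Map3k14 and Birc3 were called higher and none lower, and the median log2 difference was 0.33.

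Genes of the proteins that hold NIK down were not low. Traf3 was at 33.1, 38.4 and 36.7 CPM against 26.4 to 32 CPM (median 28.5), with a log2 difference of 0.33. Traf2 was at 19.3, 16.4 and 19.5 CPM against at most 14 CPM (median 11.9), with a log2 difference of 0.62. All 3 libraries lay above the 12 others for both genes, under the size threshold. Birc3, which encodes cIAP2, was called at 140.2, 139 and 137 CPM against 44.6 to 89.7 CPM (log2 difference 1.13 ± 0.04 with edgeR adjusted p = 1.24e-12). The call was lost, at 0.98, when IL6Myc-5 was left out of the reference mean. Birc2, the gene of cIAP1, had a log2 difference of 0.87, and Chuk, the gene of the kinase IKK alpha that acts after NIK, had one of 0.05. Mutations, fusions and protein levels were not measured.

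Among the 5 NF-kB subunit genes, the 2 of the alternative route were called and the 3 of the classical route were not. Nfkb2 was at 192, 190.3 and 182 CPM against 31.3 to 38.4 CPM (median 33.8), 5.02-fold above the nearest line (log2 difference 2.45 ± 0.03 with edgeR adjusted p = 4.44e-19). Relb was at 20.3, 24.9 and 22.3 CPM against 4.14 to 11.1 CPM (median 5.7; log2 difference 1.86 ± 0.09 with edgeR adjusted p = 9.09e-12). For both genes the 3 libraries lay above the 12 others and the call held against each line singly. Nfkb1, the p105 and p50 gene, was at 43.7 to 45 CPM and within the range of the others, which reached 45.2 CPM. Rela and Rel were within the range as well, with log2 differences of -0.02 and 0.2. Whether the subunits differ from each other in their response was not tested.

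Of the 18 tested kinases and adaptors of the classical route, Ikbke was called higher, none was called lower, and the median log2 difference was 0.11. Ikbke encodes the IKK-related kinase IKK epsilon. It was at 7.12, 8.44 and 7.6 CPM against 0.759 to 2.19 CPM (median 1.8), clear of all others (log2 difference 2.32 ± 0.12 with edgeR adjusted p = 3.65e-11). Ikbkb, the gene of IKK beta, was at 38.8 to 41.2 CPM, within the 33.1 to 63 CPM of the others.

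Of 11 tested genes of IkB proteins and feedback inhibitors 5 were called higher and none lower, with a median log2 difference of 0.87. Nfkbia, the IkB alpha gene, was at 253, 254 and 244 CPM against 20.9 to 65.1 CPM (median 35.4; log2 difference 2.81 ± 0.04 with edgeR adjusted p = 3.02e-18). Nfkbie, the IkB epsilon gene, was at 18, 18.3 and 19 CPM against 2.01 to 3.32 CPM (median 2.62; log2 difference 2.77 ± 0.11 with edgeR adjusted p = 1.05e-12). Tnfaip3, which encodes the ubiquitin-editing enzyme A20, was at 20.7, 18.7 and 18.2 CPM against 0.922 to 10.6 CPM (median 3.42; log2 difference 2.38 ± 0.14 with edgeR adjusted p = 3.31e-10). The IL6Myc-2 libraries were above all 12 others for each of these genes, and the next highest line was IL6Myc-1 each time. Zc3h12a, which encodes the RNase regnase-1, was also called singly, at 17.8, 11.8 and 14.4 CPM against 3.86 to 7.05 CPM. Bcl3, the gene of an atypical IkB protein, had a log2 difference of 1.08 that became 0.96 without IL6Myc-1 and 0.99 without IL6Myc-3 in the reference.

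Of 29 tested NF-kB target genes, 9 were called higher and 2 lower, with a median log2 difference of 0.56. A further 18 genes of that list were below the filter. Tnf, the gene of the cytokine TNF, was at 11.1, 10.7 and 12.5 CPM against 0.0357 to 1.59 CPM (median 0.635; log2 difference 4.44 ± 0.19 with edgeR adjusted p = 3.38e-12). Ebi3, which encodes a subunit of the cytokines IL-27 and IL-35, was at 18.9, 20.3 and 21.7 CPM against 0.358 to 2.83 CPM (median 1.54; log2 difference 4.07 ± 0.13 with edgeR adjusted p = 5.41e-14). Both were clear of all other libraries. Pim2 and Tapbp, described with their own groups, were the other members called singly. Traf1, a signalling adaptor, was called at 13, 14.6 and 12.8 CPM, above the 0.637 to 8.51 CPM of the others, with IL6Myc-4 nearest. Cd80, the gene of a T cell costimulatory ligand, was called at 19.6, 17 and 17.7 CPM against 2.49 to 10.7 CPM, and Il15ra, the IL-15 receptor alpha gene, had a log2 difference of 1.3. Irf1 and Irf5, transcription factors of the interferon regulatory family, had log2 differences of 1.13 and 1.05, which became 0.98 and 0.95 without IL6Myc-1 in the reference, and 0.92 for Irf5 without IL6Myc-3. The called lower members, Ccl3 and Slfn2, had means of 0.0204 and 0.346 CPM in IL6Myc-2. The call of Ccl3 was lost when IL6Myc-1 was left out of the reference (-1.88) or without replicate 1 or 2 of IL6Myc-2 (-2.69 and -2.73) or replicate 2 of IL6Myc-4 (-2.09), and that of Slfn2 was lost without IL6Myc-4 in the reference (-0.99). Icam1, a common NF-kB target, was within the range of the others.

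Ltb lies in the same gene cluster as Tnf and Lta, and Tnf and Lst1, the genes on either side of it, were called higher. Lst1, next to it in genome order, was at 2.05, 1.27 and 1.29 CPM against 0 to 0.358 CPM and was called singly (log2 difference 4.0). Aif1, the following gene on that side, was at 1.45 CPM against line means of at most 0.156 CPM and below the filter. Tnf lies on the other side of Ltb, and Lta, which follows it, was below the filter.

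The bases before the start sites of called genes are shown because several hold the motif by which NF-kB binds DNA. The sequences are RefSeq windows of 250 bases before the start of transcription on the GRCm38.p6 assembly, 5′ to 3′ on the strand of the gene. For Nfkb2, which has 3 listed starts, the window furthest upstream was taken. The motif searched was 10 bases long: G, G, G, any base, any base, T, T, any base, C, C. Both strands were searched, and matches are in capitals. They are the windows of Map3k14 (chr11:103267402-103267651, minus strand), Ltb (chr17:35194257-35194506, plus strand), Nfkb2 (chr19:46304487-46304736, plus strand), Nfkbia (chr12:55492648-55492897, minus strand) and B2m (chr2:122147437-122147686, plus strand).
Map3k14: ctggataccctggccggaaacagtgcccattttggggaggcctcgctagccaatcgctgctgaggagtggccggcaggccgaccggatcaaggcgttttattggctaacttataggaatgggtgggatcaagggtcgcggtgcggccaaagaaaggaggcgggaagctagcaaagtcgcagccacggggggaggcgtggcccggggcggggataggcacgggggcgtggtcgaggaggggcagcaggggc
Ltb: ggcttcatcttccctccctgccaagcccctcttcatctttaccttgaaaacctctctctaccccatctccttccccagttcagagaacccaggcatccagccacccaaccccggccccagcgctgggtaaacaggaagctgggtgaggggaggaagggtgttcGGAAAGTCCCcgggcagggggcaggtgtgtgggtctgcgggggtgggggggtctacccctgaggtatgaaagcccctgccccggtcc
Nfkb2: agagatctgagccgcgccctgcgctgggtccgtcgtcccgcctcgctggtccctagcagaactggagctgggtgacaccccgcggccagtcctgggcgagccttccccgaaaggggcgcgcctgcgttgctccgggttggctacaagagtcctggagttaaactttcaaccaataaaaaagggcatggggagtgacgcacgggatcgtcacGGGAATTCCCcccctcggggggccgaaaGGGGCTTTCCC
Nfkbia: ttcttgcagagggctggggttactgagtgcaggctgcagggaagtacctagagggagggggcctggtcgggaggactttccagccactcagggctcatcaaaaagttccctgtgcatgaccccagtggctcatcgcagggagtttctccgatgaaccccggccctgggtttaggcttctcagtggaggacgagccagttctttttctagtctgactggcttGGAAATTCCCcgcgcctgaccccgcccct
B2m: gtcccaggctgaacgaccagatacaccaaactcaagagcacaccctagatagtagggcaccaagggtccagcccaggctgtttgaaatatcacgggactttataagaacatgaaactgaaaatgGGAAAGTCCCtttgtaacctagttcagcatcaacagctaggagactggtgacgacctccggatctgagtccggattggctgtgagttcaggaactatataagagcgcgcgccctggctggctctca
The window of Ltb holds 1 match, which begins 87 bases before the start, and that of Nfkbia holds 1 that begins at 29 bases. The window of Nfkb2 holds 3 matches, which begin at 39, 11 and 10 bases, the last pair overlapping, and that of B2m holds 1 that begins at 126 bases. No match was found in the window of Map3k14, which says only that these letters are not in these 250 bases. Of all 32851 RefSeq windows 4.11% hold a match, and of the tested genes with a window 5.47% do. Among genes higher than each other line singly the share was 9.92% (26 of 262), and among genes lower singly 5.56% (5 of 90). Among the called higher genes of the NF-kB lists 5 of 19 hold one, namely Ebi3, Ltb, Nfkb2, Nfkbia and Tnfaip3, and among those tested and not called 8 of 42. A match is a description of the sequence and not a measured binding site.

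**Figure D2:**
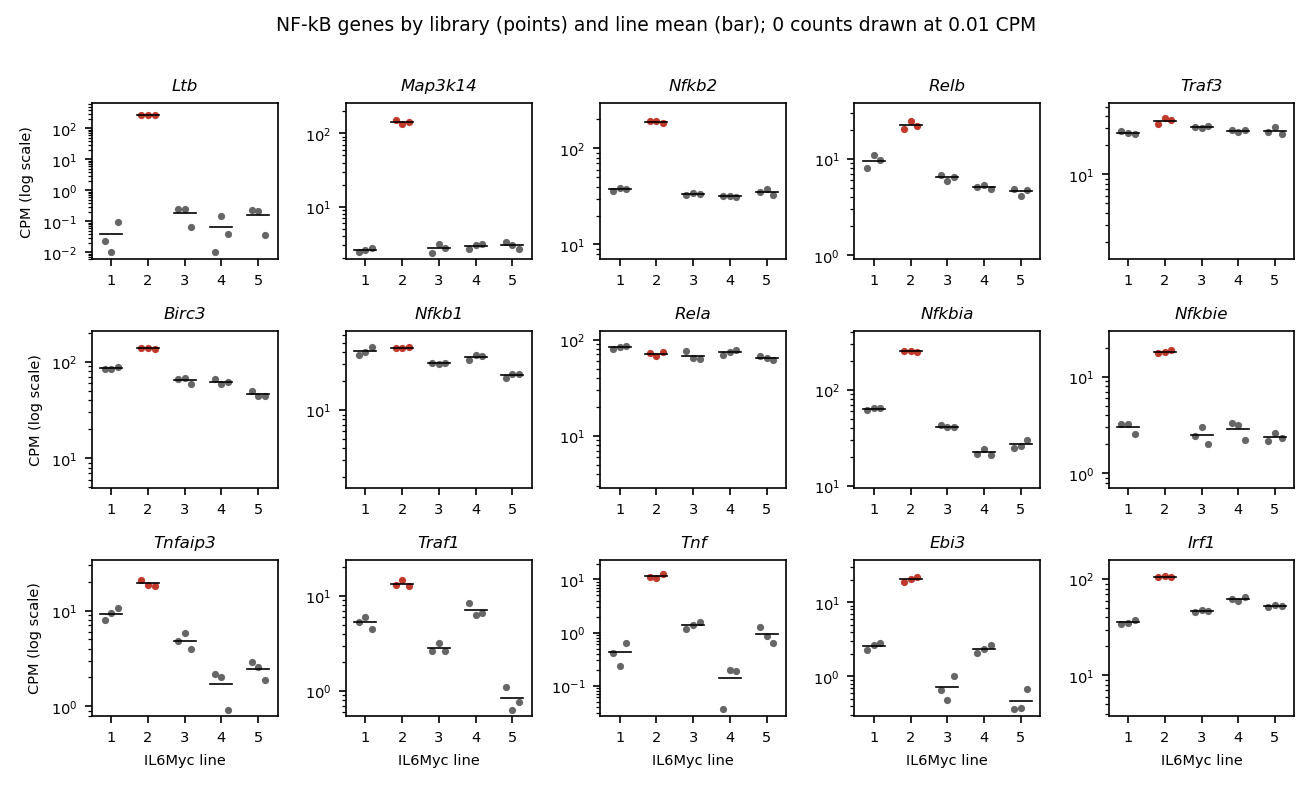
Level of 15 NF-kB genes in each library (points, CPM, log scale) by line (horizontal axis, IL6Myc-2 in red), with bars at the line means. Ltb, Map3k14, Nfkb2, Nfkbia and Nfkbie stand clear of the 12 other libraries in IL6Myc-2, while Rela and Nfkb1 overlap with them.

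MHC class II genes present peptides to CD4 T cells, and the line had high levels of some of them. Of 18 members 11 passed the filter, 4 were called higher and none lower, with a median log2 difference of 0.35. One of the 4, H2-Ab1, passed through the IL6Myc-2 libraries alone, so it could be called higher but not lower. Cd74, the invariant chain gene, was at 2683, 2764 and 2646 CPM against 64 to 182 CPM (median 131; log2 difference 4.52 ± 0.03 with edgeR adjusted p = 1.41e-23). H2-Eb1, a beta chain gene of the I-E molecule, was at 14.3, 13.4 and 12.9 CPM against 0.130 to 1.15 CPM (median 0.360; log2 difference 5.12 ± 0.16 with edgeR adjusted p = 4.28e-14). Each of these ranges was far from that of the others.

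H2-Ab1, the beta chain gene of the I-A molecule, was at 18, 16.4 and 15.1 CPM in IL6Myc-2 and had 0 counts in the 12 other libraries. Against the highest of the other lines' floors, 3 counts over a line, it was at least 387-fold higher. A 0 in the table does not show that the transcript was absent. Its partner H2-Aa, the alpha chain gene, lies beside it and was at 1.05, 1.17 and 0.552 CPM against at most 0.155 CPM, below the filter. H2-DMa, part of the peptide editor H2-M, had a log2 difference of 1.12 that became 0.7 without IL6Myc-1 in the reference, and its partner genes H2-DMb1 and H2-DMb2 were at 0.104 and 0.383 CPM. Ciita, the transactivator gene, was at 0, 0.102 and 0 CPM against 0 to 0.223 CPM, so its groups overlapped near 0. Ctss, Ifi30 and Lgmn, which process antigen and the invariant chain, were not called.

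MHC class I genes, which present peptides to CD8 T cells, were called higher for 11 of 22 tested members and lower for none, with a median log2 difference of 1.02. Most class I genes, Ltb and Tnf lie on chromosome 17, where 14.1% of 631 tested genes were called higher with a median of 0.28. Without the H2 genes these values were 11.8% and 0.27. Chromosome 6 had a like share, with 14% of 535 tested genes called higher and a median of 0.18. Whether the position on chromosome 17 has a part in the calls of class I genes, Ltb and Tnf was not tested. B2m, the shared light chain gene, was at 1473, 1556 and 1429.6 CPM against 376 to 859.6 CPM (median 547; log2 difference 1.42 ± 0.03 with edgeR adjusted p = 1.19e-16). H2-K1 was at 852, 861 and 856 CPM against 206 to 474 CPM (median 309; log2 difference 1.46 ± 0.02 with edgeR adjusted p = 1.45e-17). H2-D1 was at 2212, 2196 and 2239 CPM against 669 to 1374 CPM (median 969; log2 difference 1.19 ± 0.03 with edgeR adjusted p = 9.11e-16). The IL6Myc-2 libraries were above all others for these 3 genes, with IL6Myc-5 nearest, by 1.8-fold, 1.85-fold and 1.65-fold, and so none was called singly.

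Of the class I list Tapbp, H2-Q2 and H2-Q10 were called singly. Tapbp encodes tapasin, which loads peptide on class I molecules, and was at 358, 359.7 and 365 CPM against 58.9 to 167 CPM (median 143; log2 difference 1.61 ± 0.03 with edgeR adjusted p = 6.21e-18). The H2-Q genes are near-identical copies among which the authors' counting could split reads, so their separate values are uncertain. H2-Q7 overlapped with the others at 79.6 to 84.4 CPM against 3.0 to 95.7 CPM, and its log2 difference of 1.44 became 0.39 without IL6Myc-4 in the reference. The value of H2-Q6 went from 1.44 to 0.91 and that of H2-Q4 from 1.16 to 0.98 in the same way. The transporter genes Tap1 and Tap2 had log2 differences of 0.43 and 0.83, and Nlrc5, the class I transactivator gene, had one of -0.33. Of the 5 immunoproteasome genes none was called, with a median of 0.34, and Psmb8 was at 296 to 309 CPM against 82.2 to 310.2 CPM. In the RefSeq windows of the called class I genes 6 of 9 hold the motif above, and 5 of these are H2 genes, several of them near-identical, against 0 of 7 tested members that were not called.

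Outside the lists, H2-M10.1, a class Ib gene of the M region, was at 59, 65.4 and 65.5 CPM against 0 to 2.32 CPM (median 0.835; log2 difference 7.49 ± 0.12 with edgeR adjusted p = 1.01e-17). Among the genes of the naming rule with counts in every line, Ltb and Fabp4 had larger differences. H2-M10.1 has close relatives in the genome.

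Among constant region genes of the immunoglobulins 7 of 10 tested members were called higher, each of them against every line singly, with a median log2 difference of 1.86. Igkc, the kappa light chain constant gene, was at 53051, 53999.8 and 53899.6 CPM against 14009.5 to 23318 CPM (median 18807; log2 difference 1.53 ± 0.04 with edgeR adjusted p = 1.06e-15). Igha, the IgA heavy chain gene, was at 41545, 42394 and 40758 CPM against 16971 to 31000.3 CPM (median 23602). The Igha libraries were above all others too, but its log2 difference of 0.83 was under the threshold.

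Heavy chain genes of other classes were also high in IL6Myc-2. Ighm, the IgM gene, was at 1191, 1184 and 1184 CPM against 274 to 427 CPM (median 373; log2 difference 1.73 ± 0.02 with edgeR adjusted p = 1.38e-19). Ighg3 was at 50.7, 46.4 and 48.1 CPM against 0.260 to 1.39 CPM (median 0.706; log2 difference 6.08 ± 0.11 with edgeR adjusted p = 3.11e-17), and Ighd, the IgD gene, was at a mean of 4.41 CPM against at most 0.421 CPM. Neither range came near that of the other lines. Of the lambda genes, Iglc2 was at 1135, 1188 and 1169 CPM against 24.8 to 268 CPM (median 110.3; log2 difference 3.63 ± 0.02 with edgeR adjusted p = 8.28e-23), and Iglc1 at a mean of 334 CPM against at most 135 CPM. Iglc3, not called, was at 621 to 638 CPM against 327 to 472 CPM. Reads of the near-identical Iglc2 and Iglc3 can be split between them.

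The same variable segments led the kappa and the heavy chain V counts in all 5 lines. Igkv4-68 took 99.9% of the kappa V counts in IL6Myc-2 and 99.8% to 99.9% in the other lines. Summed kappa V counts were 35786 ± 1403 CPM (SD, n = 3) against line means of 10331 to 14037 CPM. Ighv11-2 led the heavy chain V counts in every line, with 92.5% in IL6Myc-2 and 91.5% to 96.1% elsewhere, on a sum of 9.79 CPM in IL6Myc-2. Ighv1-5 had 4.19% of the heavy chain V counts in IL6Myc-2 and at most 0.530% elsewhere. Summed lambda V counts were 124 ± 2.79 CPM (SD, n = 3) against line means of 38.1 to 141 CPM, so unlike Iglc2 they lay within the range of the other lines. The table held few counts under any heavy chain V name. V segments of mice are similar in sequence, and the strain of the lines is not stated, so these names are uncertain.

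**Figure D3:**
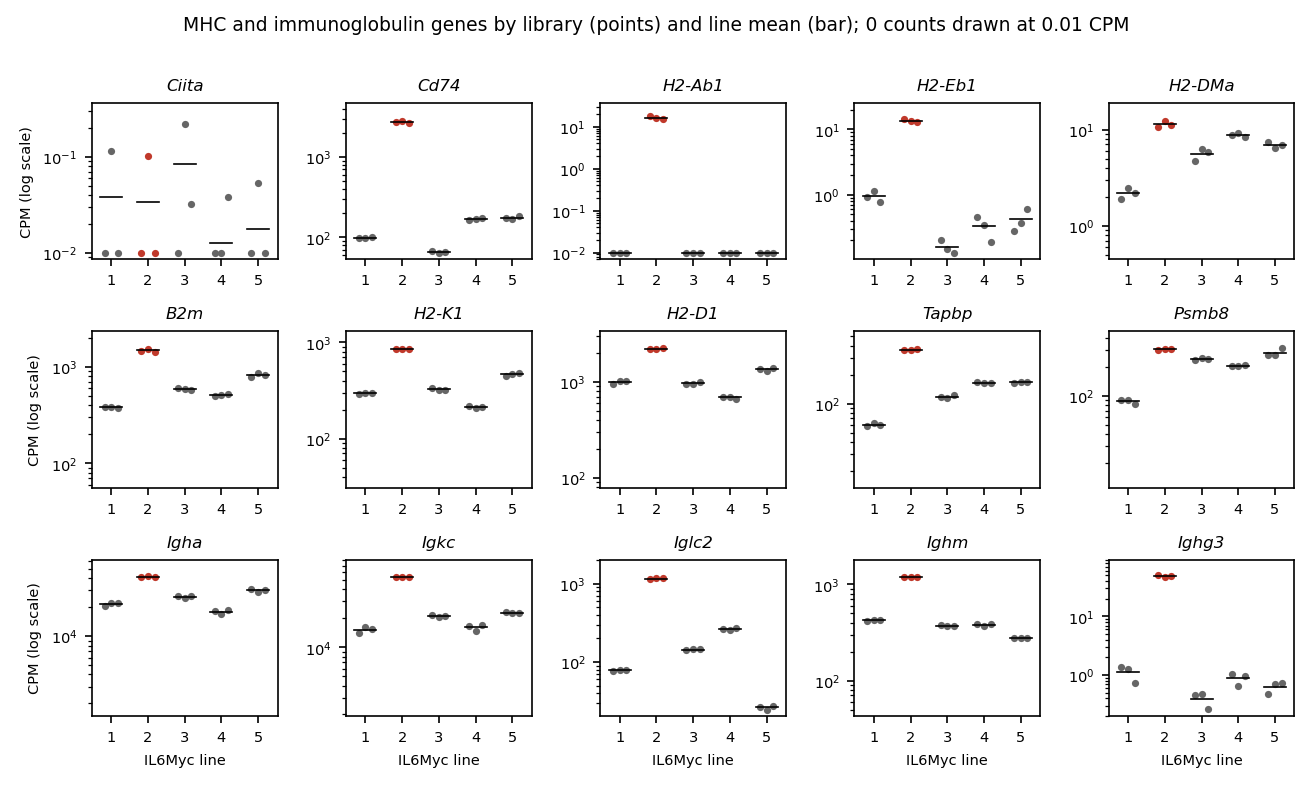
Level of 15 MHC and immunoglobulin genes in each library (points, CPM, log scale) by line (horizontal axis, IL6Myc-2 in red), with bars at the line means and 0 counts drawn at 0.01 CPM. H2-Ab1 has counts in the 3 IL6Myc-2 libraries and in no other, Ciita is near 0 in all lines, and Igkc, Iglc2, Ighm and Ighg3 lie above the 12 other libraries.

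Other genes of the B cell lineage moved in part. Of 18 tested genes of the B cell receptor and its signalling, 3 were called higher and 1 lower, with a median of 0.22. Rasgrp3, an exchange factor that activates Ras behind the receptor, was at 208, 204 and 215 CPM against 0.965 to 25.6 CPM (median 7.93; log2 difference 5.03 ± 0.06 with edgeR adjusted p = 8.96e-20). Cd79a, which encodes the Ig alpha chain of the receptor, was at 3.06, 3.2 and 2.09 CPM against 0.422 to 1.5 CPM, and Vav2, another exchange factor, had a log2 difference of 1.14. Rasgrp3 and Cd79a were clear of all other libraries. Fcgr2b, the inhibitory Fc receptor gene, was called lower at 11.7 to 13 CPM, but IL6Myc-1 was as low, with a mean of 12.1 CPM.

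Of 9 tested mature B cell markers 3 were called higher, none lower and none singly. Ly86, which encodes the MD-1 partner of the receptor RP105, was at 128, 122 and 124 CPM against 9.87 to 65.8 CPM (median 38.8; log2 difference 2.02 ± 0.04 with edgeR adjusted p = 2.69e-17). Bank1, a B cell adaptor gene, was at 52.7, 52.7 and 53 CPM against 13.2 to 38.2 CPM, with a log2 difference of 1.28. Both lay above the 12 others. Cd24a was called at 1.58, but 2 lines were higher and the value was 0.27 without IL6Myc-1 in the reference.

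Of 22 plasma cell genes 3 were called higher and 1, Tnfrsf17, lower, with a median of -0.12 and none singly. Cd28, a costimulatory receptor gene that plasma cells also use for survival, was at 210.4, 219.9 and 221 CPM against 26.6 to 121 CPM (median 82.5; log2 difference 1.68 ± 0.03 with edgeR adjusted p = 1.25e-16). Cd93, a gene linked to plasma cell maintenance in bone marrow, was at 249, 249.6 and 251 CPM, 1.25-fold above IL6Myc-3. Derl3, a component of protein export from the endoplasmic reticulum, was at 352, 343 and 338 CPM against 55.2 to 180.2 CPM (log2 difference 1.52 ± 0.04 with edgeR adjusted p = 1.14e-15). For these 3 genes the IL6Myc-2 libraries lay above all others.

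Secretory quality control genes were called about as often as the 8.6% of all tested genes called higher. Of 19 tested genes of degradation from the endoplasmic reticulum, Sel1l and Derl3 were called higher and none lower, with a median of 0.13. Sel1l, the scaffold of the HRD1 ligase, was at 2187, 2153 and 2163 CPM against 900.1 to 1045 CPM (median 989; log2 difference 1.14 ± 0.03 with edgeR adjusted p = 1.82e-15). It was above every other library by at least 2-fold. AI506816, a lncRNA gene chosen after its values were seen, was at 12971, 12799 and 12582 CPM against 477 to 3168 CPM (log2 difference 2.99 ± 0.03). Of 24 unfolded protein response genes 2 were called higher, or 4 without IL6Myc-4 in the reference, with a median of 0.2, and Hspa5, the gene of the chaperone BiP, had a log2 difference of 0.41. Trib3 was 1 of the 2, at 37.7 to 40.3 CPM against 7.83 to 35.6 CPM, and the other, Ero1b, had a log2 difference of 1.0 that lay under the threshold in 10 of the alternative settings, at 0.76 without IL6Myc-1 in the reference.

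Cytokine receptors and signalling were tested next. Of 19 genes of IL-6 receptor, JAK, STAT and SOCS signalling 2 were called higher, none lower, and the median was 0.07. Socs3, the gene of a feedback inhibitor of cytokine signalling, was called, overlapped with IL6Myc-5 and had a log2 difference of 1.13, or 0.77 without IL6Myc-1 in the reference. Il6ra and Il6st, which encode the IL-6 receptor chains, had log2 differences of -0.52 and -0.14, and Stat3 had one of 0.41.

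Pim kinases promote survival and growth downstream of cytokines, and 2 of the 3 genes were called singly. Pim2 was at 136, 137 and 138 CPM against 11.9 to 19.3 CPM (median 16.6; log2 difference 3.09 ± 0.05 with edgeR adjusted p = 1.24e-17). Pim1 was at 1105, 1122 and 1177 CPM against 192 to 437 CPM (median 341; log2 difference 1.85 ± 0.03 with edgeR adjusted p = 1.11e-17). Pim3 was above all others too, at 39.2 to 50.6 CPM against at most 32.7 CPM, with a log2 difference of 0.71.

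Receptor genes outside the lists, named after their values were seen, included Il2rg, the common gamma chain gene. It was at 188, 194 and 189.5 CPM against 21.1 to 78.4 CPM (log2 difference 2.18 ± 0.04 with edgeR adjusted p = 1.33e-16). Il10ra, the IL-10 receptor gene, was at 13.9, 11.2 and 12.6 CPM against 0.979 to 3.46 CPM. Il2rb, the IL-2 and IL-15 receptor beta chain gene, was at 2.94 CPM on average against at most 0.426 CPM in a library. Il13ra1, an IL-13 receptor gene, went the other way, at 20.9, 16.9 and 20.6 CPM against 43.2 to 129.7 CPM (log2 difference -2.04 ± 0.06 with edgeR adjusted p = 1.26e-14). None of these 4 genes overlapped with the other lines.

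Of 9 Ikaros factor and cereblon genes, which mark the targets of immunomodulatory drugs, Ikzf3 was called and none was lower, and a further member was called without IL6Myc-1 or IL6Myc-4 in the reference. Ikzf3, the Aiolos gene, was at 42.7, 54.1 and 47.6 CPM against 2.08 to 14 CPM (median 3.67; log2 difference 3.37 ± 0.09 with edgeR adjusted p = 2.88e-15). Ikzf1 (Ikaros) was at 155 to 161 CPM and just under the 169.6 to 194 CPM of the others, with a log2 difference of -0.19, and Crbn (cereblon) had one of -0.18. Of 24 oncogenes and tumour suppressors of myeloma, Mycl was called, at 4.06, 3.15 and 3.37 CPM against 0 to 1.3 CPM (log2 difference 4.19). Myc overlapped with the others, at 1491 to 1597 CPM against 1000.4 to 1499 CPM. Of 12 BCL2 family genes Bik, a BH3-only death gene, was called, at 6.54, 8.44 and 6.93 CPM against 0.531 to 2.97 CPM. Bcl2 and Mcl1 were not called, with log2 differences of 0.87 and -0.22.

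Surface, adhesion and homing genes held some of the large differences. Of 21 surface targets and immune ligands 5 were called higher and 1 lower, with a median of 0.24. Cd52 was at 405, 406 and 387 CPM against 64.8 to 152 CPM (median 105; log2 difference 1.97 ± 0.03 with edgeR adjusted p = 8.86e-19), and Icosl, the ligand gene of ICOS, at 7.16, 7.32 and 7.48 CPM against 0.480 to 1.89 CPM (log2 difference 3.0). Both were called singly. Cd38 and Slamf7, which encode targets of antibodies in use for myeloma, were not called, with log2 differences of -0.2 and -0.35. The called lower member of this list was Tnfrsf17, the BCMA gene described above, and Gprc5d and Fcrl5 were below the filter. Of 19 integrin genes 4 were called higher and 1 lower, and 2 were called singly. Without IL6Myc-1 in the reference 2 were higher and 2 lower, without IL6Myc-4 2 were lower, without IL6Myc-5 3 were lower, and without replicate 1 of IL6Myc-5 2 were lower. Itgb3, the beta 3 chain gene, was at 79.4, 77.3 and 84.3 CPM against 0.208 to 12.1 CPM (median 2.46; log2 difference 5.26 ± 0.09 with edgeR adjusted p = 1.45e-17), and Itgam, the alpha M chain gene, at 11.8, 11.4 and 11.5 CPM against 0.850 to 3.93 CPM. Ccr10, a homing receptor gene of IgA plasma cells, was at 26.3, 24.7 and 26.1 CPM against 1.3 to 7.21 CPM (median 4.36; log2 difference 2.76 ± 0.09 with edgeR adjusted p = 1.03e-13). Cxcr4, the bone marrow homing receptor gene, had a log2 difference of -0.36.

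Of 13 tested Wnt pathway genes Wnt10a was called, with 2 called without IL6Myc-1 in the reference. This Wnt ligand gene was at 260.5, 262 and 263 CPM against 3.83 to 20.8 CPM (median 6.0; log2 difference 5.19 ± 0.04 with edgeR adjusted p = 1.06e-21), 13.4-fold above IL6Myc-5, the nearest line. Of 18 Notch pathway genes 3 were called higher and 1 lower, and 1 was higher without replicate 3 of IL6Myc-2. Dtx1, the Notch target and regulator Deltex, was at 3.06, 3.31 and 2.58 CPM and had 0 to 0.0759 CPM in the others. Hes1, a Notch target, was at 24.5, 27.7 and 25.4 CPM against 8.5 to 16.7 CPM (log2 difference 1.09, or 0.97 without IL6Myc-1 in the reference). The receptor gene Notch1 was below all others at 24.7, 24.4 and 27.4 CPM, under a median of 55.1 CPM, with a log2 difference of -1.04 that was -0.95 without IL6Myc-1 and -0.85 without IL6Myc-4.

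Of 19 oxygen sensing genes 2 were called higher and 1 lower, shares near the 8.6% and 4.08% of all tested genes. Egln1 encodes PHD2, the main enzyme that marks HIF alpha for destruction when oxygen is present. It was at 24.8, 26.2 and 25.3 CPM in IL6Myc-2 and had 0 counts in the 12 other libraries, at least 596-fold higher against the highest of their floors. Its neighbours Exoc8, Sprtn and Tsnax were counted in every line and not called, with means of 9.04, 29.7 and 53.1 CPM in IL6Myc-2. The other called members of the list were Egln3, which was higher, and Ndrg1, which was lower. Not called were Hif1a and Vhl, with log2 differences of -0.35 and -0.09, and the HIF targets Vegfa and Slc2a1, with 0.7 and -0.03.

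Mitochondrial carriers gave the reverse case. Slc25a4, which encodes the ADP/ATP carrier ANT1, had 1 count over the 3 IL6Myc-2 libraries and was at 27.6 to 49.5 CPM (median 38.6) in the 12 others (edgeR adjusted p = 2.20e-17). Its neighbours Snx25 and Cfap97 were at 19.8 and 12.7 CPM and not called. The related carrier gene Slc25a5 (ANT2) was at 536, 556 and 544 CPM and within the range of the others, with a log2 difference that rounds to 0. Of 26 tested carriers 2 others were called, both higher. Slc25a13, the aspartate/glutamate carrier citrin, was at 10.6, 10.2 and 10.7 CPM against 0 to 0.260 CPM.

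Ly6k, a surface protein gene of the Ly6 family, had the lowest fitted difference of the naming rule. It had 1 count in IL6Myc-2 and was at 146 to 224 CPM (median 169) in the other 12 libraries (edgeR adjusted p = 6.98e-20). Ly6g6g, beside it in genome order, had 0 counts in IL6Myc-2 and was at 1.02 to 2.18 CPM elsewhere, at least 22.9-fold lower against the floor. Ly6d, the next gene, was at 1888, 2067 and 1938 CPM, above the 589 to 1571 CPM of the others, with a log2 difference of 0.98 just under the threshold. Ly6g6g was not on the Ly6 family list. Of the 9 tested genes on that list none was called higher and 2, Ly6k and Lypd1, were called lower.

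Genes of the Ifi200 family, interferon-inducible DNA-binding proteins encoded in 1 cluster, were called lower for 6 of 7 tested members, each singly, with a median log2 difference of -6.28. Ifi204 was at 0.0955, 0 and 0.0613 CPM, 3 counts in all, against 6.04 to 52.2 CPM (median 22.4; edgeR adjusted p = 3.77e-13). Ifi207 had 2 counts against 1.99 to 10.6 CPM, Ifi211 1 count against 1.34 to 11.8 CPM, and Ifi202b 1 count against 0.528 to 6.85 CPM. Ifi203 was at 0.0955, 0.407 and 0.613 CPM against 0.688 to 5.63 CPM, the smallest gap of the 6, and Ifi209 had 5 counts. Aim2, the cytosolic DNA sensor of the same family, was not called and overlapped with the others, at 50.5, 57.4 and 64.2 CPM against 45.6 to 62.6 CPM. The family has near-identical copies, and its values for single genes are uncertain. On the log2(CPM + 5) scale 1 of the 6 calls was left.

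Of 23 other interferon-stimulated genes 1 was called higher and 4 were called lower, with a median of 0.08. Gbp7, a guanylate-binding GTPase, was at 3.63, 4.02 and 4.05 CPM against 5.28 to 30.5 CPM (median 15.7; log2 difference -1.81 ± 0.11 with edgeR adjusted p = 2.43e-10). Mx1, an antiviral GTPase, was at 0.143, 0.559 and 0.123 CPM against 0.612 to 5.47 CPM, and Xaf1 at 0.552 to 1.0 CPM against 1.57 to 4.57 CPM. These 3 lay below all other libraries. Irf7 and Bst2 were not called, with log2 differences of 0.71 and -0.17.

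Tfrc, the transferrin receptor gene through which cells take up iron, was at 227, 227 and 235 CPM against 624 to 986 CPM (median 683; log2 difference -1.67 ± 0.03 with edgeR adjusted p = 6.39e-17). The libraries were far below the others, and the call held singly. It was 1 of 2 called among 17 iron genes, and Trf, the transferrin gene, had a log2 difference of -0.69.

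Of 12 MAPK feedback genes 2 were called lower and none higher, with a median of -0.16. Spry1, a feedback inhibitor of Ras signalling, was at 0.0955, 0.0508 and 0.0613 CPM against 0.240 to 3.11 CPM (median 1.52; log2 difference -4.17 ± 0.44 with edgeR adjusted p = 3.16e-07). Dusp5, an ERK phosphatase gene, was at 41.1, 41.2 and 42.1 CPM against 57.8 to 158 CPM (log2 difference -1.07, or -0.8 without IL6Myc-5 in the reference), and Dusp6 was not called. Both called genes lay below all others. Of 9 tested AP-1 and early growth response genes 2 were called higher and 3 lower, and 1 stayed lower without IL6Myc-5 in the reference. Fosb was called at 2.82, 3.15 and 3.19 CPM against 4.92 to 33.8 CPM (log2 difference -1.7), and Batf, an AP-1 factor of lymphocytes, was called higher at 2.34, 1.58 and 1.96 CPM against 0 to 0.422 CPM. Of 17 genes of TGF-beta and BMP signalling Tgfb2 and Tgfbr1 were called lower and none higher. Tgfbr1 had a log2 difference of -1.2, or -0.95 without IL6Myc-4 in the reference. Tgfb2 was at 7.02, 6.76 and 7.24 CPM against 7.89 to 37.5 CPM, with IL6Myc-5 nearly as low.

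Further genes met the rule for the lowest differences. Slco3a1, an organic anion transporter gene, was at 0.287, 0.508 and 0.859 CPM against 28.9 to 41.3 CPM (median 31.5; log2 difference -5.95 ± 0.12 with edgeR adjusted p = 1.96e-16). Csmd1, a large membrane protein gene, was at 0.908, 0.763 and 0.920 CPM against 17.6 to 82 CPM (median 60.3; log2 difference -5.81 ± 0.1 with edgeR adjusted p = 1.11e-17). Robo1, the Slit receptor gene, was at 1.39, 0.864 and 0.981 CPM against 8.22 to 14.3 CPM, and Atp7b, the copper transporter gene, at 1.82, 1.53 and 1.66 CPM against 8.88 to 18.3 CPM. Each of these 4 genes was far below all 12 other libraries. Tln2 (talin 2), the secreted protease gene Adamts1, Wfikkn2, Dcaf8l, Tekt5 and Macrod2 met it too, with log2 differences from -4.63 for Wfikkn2 to -2.47 for Macrod2. Jcad, a cell junction gene, had 0 counts in IL6Myc-2 and was at 7.59 to 11 CPM elsewhere, at least 157-fold lower against the floor.

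**Figure D4:**
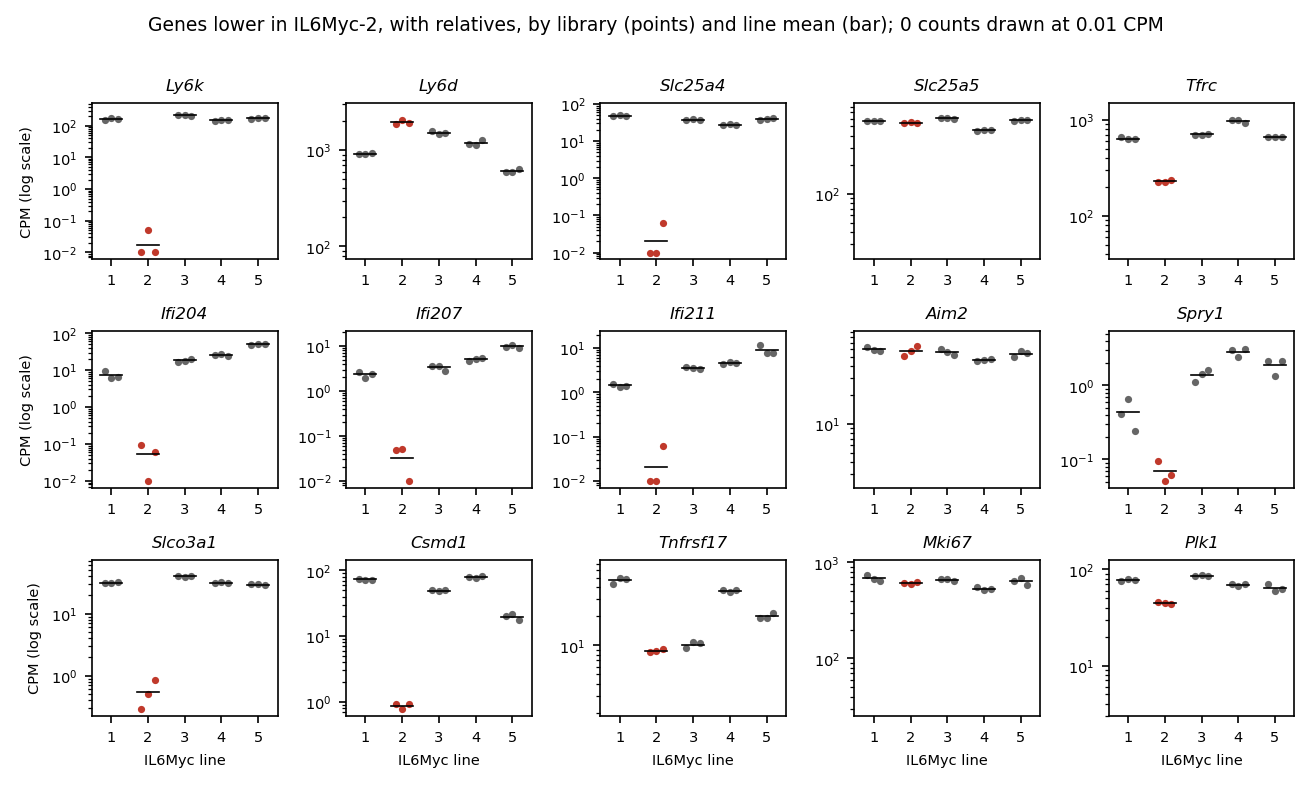
Level of 15 genes, most of them lower in IL6Myc-2, in each library (points, CPM, log scale) by line (horizontal axis, IL6Myc-2 in red), with bars at the line means and 0 counts drawn at 0.01 CPM. Ly6k, Slc25a4, Ifi204, Ifi207 and Ifi211 have 3 counts or fewer in IL6Myc-2, while their relatives Ly6d, Slc25a5 and Aim2 are at or above the level of the other lines.

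Among the largest rises by the rule were genes with no shared list. Fabp4, a fatty acid binding protein gene, was at 61.6, 68.1 and 58.1 CPM against 0 to 0.429 CPM (median 0.154; log2 difference 8.72 ± 0.16 with edgeR adjusted p = 3.01e-17). Elf3, an ETS transcription factor gene best known from epithelia, was at 59.1, 63.9 and 62.1 CPM against 0.231 to 4.58 CPM (median 1.2; log2 difference 5.76 ± 0.11 with edgeR adjusted p = 7.25e-17). Prg2, the eosinophil major basic protein gene, was at 33, 34 and 32.3 CPM against 0.0462 to 0.607 CPM (median 0.366; log2 difference 6.72 ± 0.14 with edgeR adjusted p = 1.92e-16). None of these ranges came near the others. S100a11, a calcium-binding protein gene, was at 39, 34.7 and 36.6 CPM against 0.0924 to 1.37 CPM, and Ank, a pyrophosphate transport gene, at 48.1 to 53.2 CPM against 0 to 17.4 CPM, with IL6Myc-3 nearest. Tes, Mid2, Rasal1, Gabrr1, Igsf21, Slc43a3 and Pla1a completed the rule, with log2 differences from 5.77 for Pla1a to 7.31 for Tes.

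Several genes were high in IL6Myc-2 with 0 counts in 1 or more other lines. Evl, an actin regulator gene, was at 38.3, 32.5 and 39.6 CPM against 0 to 0.107 CPM, and Unc5b, a netrin receptor gene, at 35.2, 34.1 and 34.6 CPM against 0 to 0.115 CPM. Serpina3g, a serine protease inhibitor gene, was at 35.2, 32.8 and 36 CPM and reached 0.0387 CPM in the other libraries. Igfbp2, an insulin-like growth factor binding protein gene, was at 69.3, 67.7 and 69.4 CPM against 0 to 6.49 CPM. Of the 11773 tested genes 8 were called higher with 0 counts in all 12 other libraries, and 25 were called lower with 0 counts in IL6Myc-2.

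Cell cycle genes were lower by small amounts. Of 25 mitosis genes none passed the size threshold, but 23 were lower with an adjusted p under 0.05 at any size and none was higher, with a median log2 difference of -0.52. All 3 libraries lay below the 12 others for 19 of the 25. Plk1, the mitotic kinase gene, was at 45.2, 44.5 and 43.4 CPM against 59.4 to 86.4 CPM (median 73.2; log2 difference -0.73 ± 0.04 with edgeR adjusted p = 3.01e-10). Ccnb1, the cyclin B1 gene, was at 71.4, 68.2 and 70.4 CPM against 96.4 to 112 CPM, with a log2 difference of -0.58. Of 30 replication genes 26 were lower at any size and 1 higher, with a median of -0.36; Pcna, the sliding clamp gene, was at 174 to 184 CPM, under a median of 237 CPM in the others. At any size 3787 of the 11773 genes were lower and 3933 higher. Mki67, the marker of cycling cells, was not among them and overlapped with the others at 587 to 622 CPM against 516 to 743 CPM. Of 20 p53 targets and 24 genes of Myc targets and ribosome biogenesis none was called, with medians of 0.09 and -0.02.

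Markers of other cells were read beside these results. Of 8 tested myeloid markers 3 were called higher and 1 lower (2 lower without IL6Myc-1, IL6Myc-3 or IL6Myc-5 in the reference). The summed level of all 22 myeloid markers, tested or not, was 326 to 343 CPM in IL6Myc-2 against 151 to 791 CPM in the others. Fcgr4, an Fc receptor gene, was the clearest, at 26.8, 28.4 and 27.6 CPM against 2.45 to 12.4 CPM. The defining genes Lyz2 and Cd14 had 0 counts in the line and Csf1r 1 library above 0, at 0.0478 CPM. Of 6 tested T and NK cell markers 3 were called higher and 2 lower. The sum over the 19 T and NK cell markers with an entry, tested or not, was 66.3 to 74.1 CPM against 26.4 to 128 CPM. Cd3d was at 6.78, 8.75 and 7.3 CPM against 0.0531 to 3.57 CPM and was called singly, whereas Cd3e was at 0 to 0.0955 CPM and Gzmb had 0 counts. Of the erythroid and the stromal markers 2 and 3 passed the filter, with 1 called lower in each.

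**Figure D5:**
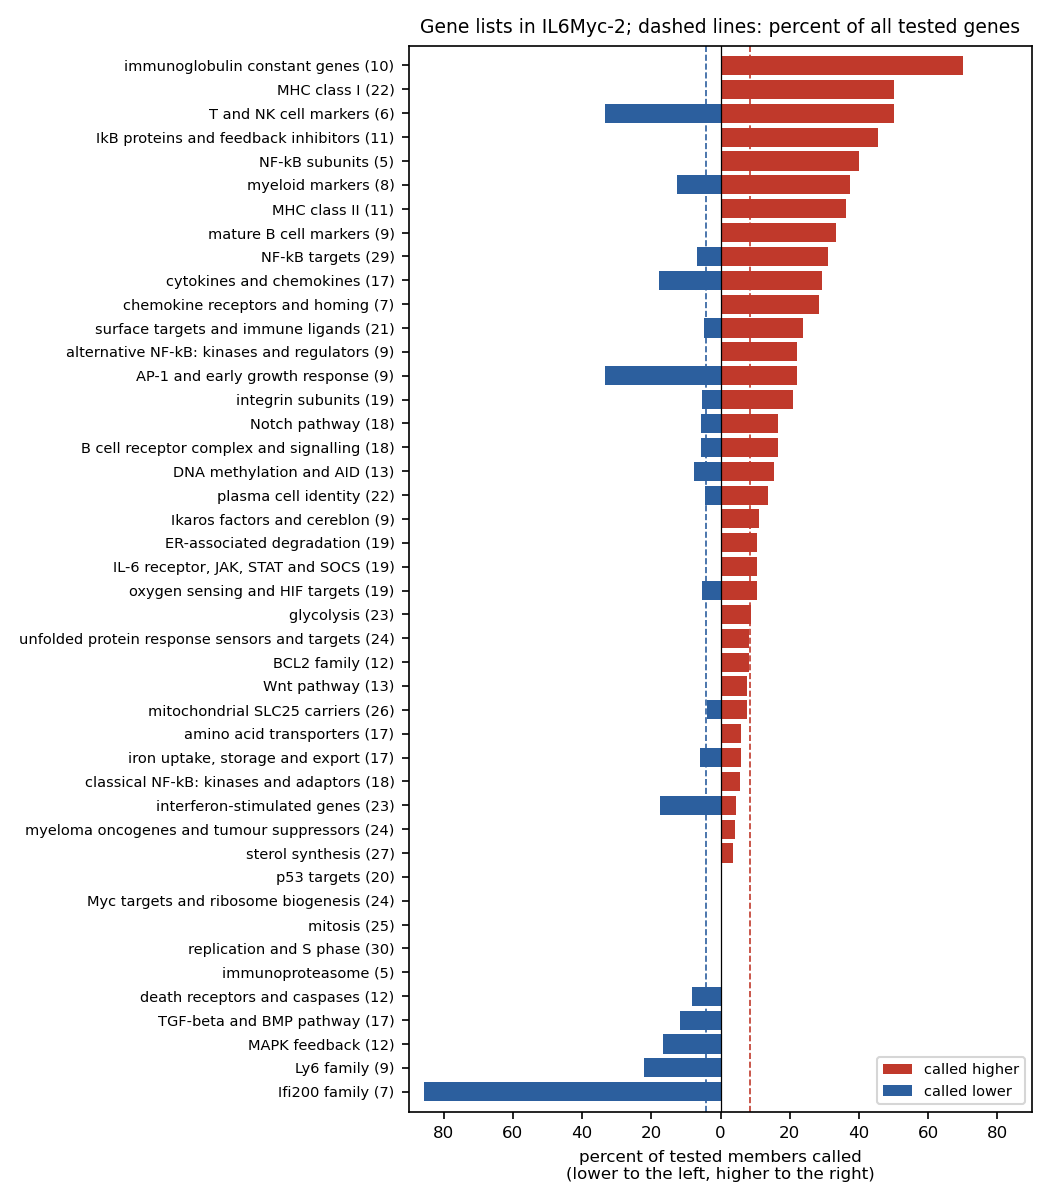
Percent of the tested members of each gene list (vertical axis, number tested in parentheses) called higher (red, to the right) or lower (blue, to the left) in IL6Myc-2, for lists with at least 5 tested members. Dashed lines mark the 8.6% and 4.08% of all tested genes called higher and lower, and immunoglobulin constant genes, MHC class I and IkB proteins lie far to the right while the Ifi200 family lies far to the left. The T and NK cell markers reach as far to the right as MHC class I, with 3 of 6 called higher, and have 2 called lower.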

How the data were processed

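RNA sequencing libraries of 5 mouse myeloma lines, 3 technical replicates each, were prepared, per the labels' protocols, from total RNA with a stranded kit. Per the submitters' processing notes, Trim Galore 0.4.0 and DESeq2 were used with the GRCm39 build. How reads were aligned and quantified, and with which annotation, is not given in the sources used here. Deposited values, in a table named for TPM, were treated as estimated counts, because deposited columns differ in their totals (19068543 to 41165599) and 30.8% to 54.3% of values above 0 and under 1.5 lie within 0.02 of 1. Any length correction the authors applied would remain in the levels. The table's 1 further column, of means over the 15 libraries, was not used.

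Values were rounded to whole numbers. Of 32434 entries 99.2% matched a symbol in the RefSeq table of GRCm38.p6. A gene was tested if it reached 1 CPM in 3 or more libraries. The test was the quasi-likelihood test of edgeR 4.0.16 (R 4.3.3) with TMM scaling and line as factor over all 15 libraries, adjusted by Benjamini-Hochberg over all tested genes, with a median biological coefficient of variation of 0.064. CPM are on TMM-scaled sizes and not per length, so levels are compared between lines, not between genes. Library pairs within a line differed by more than sampling noise and were kept apart. Libraries of IL6Myc-2 and the same-numbered libraries of each other line deviated together at correlations of -0.084 to 0.064. The numbers therefore do not pair IL6Myc-2 libraries with those of the other lines, and pairs among the other lines were not examined. The fit was also run on simulated counts with known changes in IL6Myc-2 alone. In these the other 4 lines did not differ from each other, unlike in the data, and the outcome is not reported here.

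Named genes are list members, the 15 highest and 15 lowest differences among genes called singly, outside the range of the 12 others and at 5 CPM or more on the higher side (segments, pseudogenes and predicted genes left out), up to 10 genes per direction with a line at 0 counts, and neighbours of 6 genes. The text gives a selection, and some genes are not reported here. The members and lists were chosen with earlier results of these data known. Alternatives were DESeq2 1.42.0, other scalings and filters, limma 3.58.1 on log2(CPM + 1) and log2(CPM + 5), a replicate block, each library left out, and each line left out of the reference.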

Additional observations from a re-analysis of the deposited data

How the results depend on the processing

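The 1013 higher and 480 lower genes became 592 and 252 with a filter of 5 CPM, 1758 and 655 with no filter, 687 and 248 with limma on log2(CPM + 1), and 327 and 84 on log2(CPM + 5). The 364 higher and 130 lower genes called singly became 198 and 71 at 5 CPM, 282 and 47 on log2(CPM + 1), and 129 and 21 on log2(CPM + 5). A pseudocount shrinks the differences of low genes by construction, and a stricter filter tests fewer genes. The share of calls that were higher was 67.8%, and 79.6% on log2(CPM + 5). Leaving out each library in turn gave 897 to 1014 higher, 454 to 482 lower, 253 to 364 singly higher and 122 to 128 singly lower genes. Without 1 IL6Myc-2 library, genes present in this line alone fail the filter of 3 libraries. Leaving each line out of the reference gave 873 to 1063 higher and 483 to 540 lower genes. DESeq2 gave 1024 and 496. With immunoglobulin genes left out of the scaling there were 1014 higher, 480 lower, 364 singly higher and 130 singly lower genes. With a replicate block the counts were 1016, 482, 363 and 126, and the replicate numbers do not pair IL6Myc-2 libraries with those of the other lines. On log2(CPM + 5) the called genes of IkB proteins and feedback inhibitors went from 5 to 3 and Notch genes from 3 to 0. Of 133 called genes named here 92 kept their call in every setting that tested them and none reversed. With no filter NF-kB targets went from 9 to 14, class II genes from 4 to 7 and mature B cell markers from 3 to 6. Low counts limit genes near 1 CPM, and each line is 1 source.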

Other observations

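Further genes, named after their values were seen, were high in IL6Myc-2. Serpina1a, the gene of an alpha-1 antitrypsin, was at 466, 485 and 478 CPM against 21.0 to 117 CPM, and Serpina1c at 53.5, 53.9 and 53.2 CPM against 1.81 to 13.8 CPM. These are near-identical copies, so their separate values are uncertain. The Rhox genes are homeobox genes of the X chromosome that are best known from the germ line. Rhox2d was at 54.4, 63.8 and 59.0 CPM against 0 to 5.26 CPM, while Rhox5 overlapped with IL6Myc-5, at 86.2 to 89.6 CPM against at most 105 CPM. The Rhox genes have close copies as well. Six2, a homeobox gene of kidney progenitors, was at 9.94 to 11.8 CPM and Hoxa5 at 1.91, 1.22 and 2.27 CPM, with 0 counts in the 12 other libraries, at least 256-fold and 42.2-fold higher against the highest of the floors. The Y-linked gene Ddx3y, an RNA helicase gene, had a mean of 47.6 CPM in IL6Myc-2, 32.8 CPM in IL6Myc-3 and 25.6 CPM in IL6Myc-4, and 0 counts in IL6Myc-1 and IL6Myc-5. All 5 tested genes of the Y chromosome were called higher and 1 of them singly, on a reference that lines at or near 0 lower.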
